A study of Mus musculus with 10 samples.

Results

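The vascular endothelial growth factor (VEGF), platelet-derived growth factor (PDGF) and angiopoietin genes encode secreted ligands through which the cells of a vessel wall signal to each other. The 10 genes described here, *Vegfa*, *Vegfb*, *Vegfc*, *Pgf*, *Pdgfa*, *Pdgfb*, *Pdgfc*, *Pdgfd*, *Angpt1* and *Angpt2*, were taken by symbol from the 55453 gene symbols of the count table, whatever their values. All 10 passed the filter on low counts, which kept 14614 of the 28011 genes with a count. RNA-seq had been performed on whole aortae of male C57BL/6 mice, 5 young mice aged 14.5 weeks and 5 old mice aged 92.5 weeks, with 1 library of poly(A) RNA per mouse. The labels name no mutation, transgene or treatment in either group. The mice were perfused with saline and killed at the same time, and the fat around the aortae was removed before RNA extraction. The comparison of old with young aortae asks which transcripts differ in level between the 2 ages.

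VEGF-A drives growth, survival and permeability of endothelial cells through the receptor tyrosine kinase KDR, while VEGF-B and placental growth factor bind FLT1, a receptor of weaker kinase activity, and VEGF-C acts mainly on lymphatic endothelium through FLT4. PDGF ligands act on mesenchymal cells through PDGFRA and PDGFRB, and endothelial PDGF-B recruits smooth muscle cells and pericytes to vessels. Angiopoietin-1 activates the endothelial receptor TEK (Tie2) and keeps vessels quiet, and angiopoietin-2, made largely by endothelial cells, competes with it for the same receptor.

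Each library held between 19640401 and 22886153 counts on genes, and this depth gave each of the 10 genes at least 60.5 normalised counts in every library. Normalised counts are counts divided by the size factor of the library. Old replicate 2 stood apart by a mitochondrial share of 11.0% of its counts, against 4.50% to 6.51% in the other libraries, and young replicate 1 had the highest summed level of the 7 white adipocyte markers, 36441 normalised counts against 6135 to 19357 elsewhere. Smooth muscle markers were present in all libraries, with a summed level of 796386 to 945758 in young and 736475 to 900014 in old aortae.

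Of the 10 growth factor genes, 4 changed between young and old aortae at an adjusted p below 0.05 (edgeR quasi-likelihood test with Benjamini-Hochberg adjustment over all 14614 tested genes), where 11.5% of all tested genes were called. *Pdgfc*, *Pdgfb* and *Angpt2* rose in old aortae, in a comparison in which 6.48% of tested genes were called higher. *Vegfa* fell, where 4.99% of tested genes were called lower. The young and old libraries did not overlap for *Pdgfc* and *Angpt2*, which was the case for 9.92% of all tested genes. Over the 10 genes the median log2 fold change, old over young, was 0.23, and over all tested genes it was 0.0034. DESeq2 and limma-voom, which called 15.8% and 11.6% of all tested genes, called the same 4. *Vegfa* was the only VEGF gene called, *Pdgfb* and *Pdgfc* the only PDGF genes, and *Angpt2* the only angiopoietin.

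**Figure D1:**
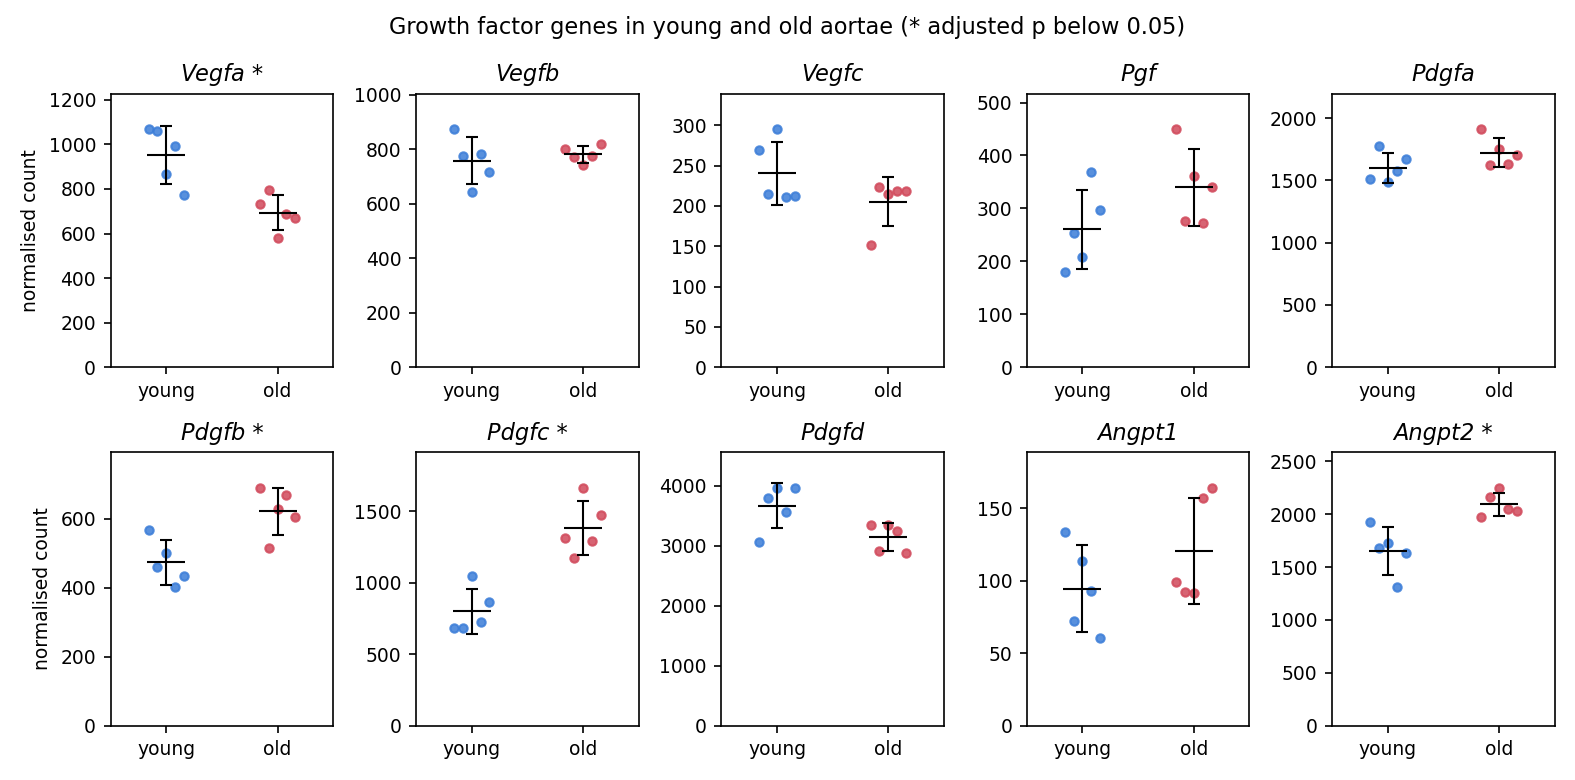
Normalised counts of the 10 growth factor genes in each library, with young aortae in blue, old aortae in red, and the mean and SD of 5 mice in black; an asterisk marks an adjusted p below 0.05. The 5 old libraries lie above all young libraries for *Pdgfc* and *Angpt2*, and 4 of 5 old libraries lie below all young libraries for *Vegfa*.

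*Vegfa*, the main endothelial growth factor of the family, lies on chr17:46016993-46032369 (GRCm38, minus strand) and fell with age. Its normalised counts were 1068, 1059.6, 865, 995 and 773 in young replicates 1 to 5 and 732, 797, 582, 689 and 669.9 in old replicates 1 to 5. Only old replicate 2 reached into the young range, above young replicate 5, and the other old libraries were below all young ones. The mean was 952 ± 129 in young and 694 ± 79.3 in old mice (SD, n = 5 each), and the edgeR fit gave a level 26.8% lower in old mice. The log2 fold change was -0.45 (SE 0.10, 95% interval -0.67 to -0.23, adjusted p = 0.0133). The call held when each library was left out in turn, with log2 fold changes between -0.52 and -0.39, including the omission of old replicate 2 (-0.51, adjusted p = 0.00961) and of young replicate 1 (-0.41, adjusted p = 0.0207). The 7 markers of white adipocytes, cells that also make VEGF-A, all had negative log2 fold changes with a median of -1.04, none was called (5 at an unadjusted p below 0.05, 2 called by DESeq2 and 1 by limma-voom), none was at 0 in any library, and their part in the lower *Vegfa* level was not tested. Of all tested genes, 26.7% had an unadjusted p below 0.05, and DESeq2 called 15.8% and limma-voom 11.6%.

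*Vegfb*, whose product binds FLT1, had nearly equal levels at both ages. It lay between 644 and 874 normalised counts in young and between 741 and 819 in old aortae, so that the old range fell inside the young one. Its log2 fold change was 0.05 (SE 0.07, adjusted p = 0.726), with a 95% interval of -0.11 to 0.21. The spread between mice, as the coefficient of variation, was 11.2% in young and 3.79% in old aortae.

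*Vegfc*, the lymphatic growth factor, and *Pgf*, encoding placental growth factor, did not pass the test. *Vegfc* had 269, 214, 295, 211 and 212 normalised counts in young and 152, 223, 214, 219 and 219 in old aortae, at a log2 fold change of -0.22 (SE 0.13, 95% interval -0.51 to 0.07, adjusted p = 0.324). Young replicates 1 and 3 were above all the other libraries, and old replicate 1 was below them. *Pgf* had 179, 254, 208, 368 and 296 normalised counts in young and 449.7, 276, 362, 273 and 340.3 in old aortae, at a log2 fold change of 0.39 (SE 0.20, 95% interval -0.04 to 0.82, adjusted p = 0.230). Only old replicate 1 exceeded the highest young library, and the interval still holds an increase as large as that of *Pdgfb*.

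Upstream sequence is shown for the VEGF gene that fell and for its FLT1-binding relative that did not, since their relative levels shifted with age. The windows are the 250 bases before the RefSeq transcript start on build GRCm38.p6, 5′ to 3′ on the strand of the gene, chr17:46032378-46032627 on the minus strand for *Vegfa* and chr19:6987652-6987901 on the minus strand for *Vegfb*. Capitals mark the GC box, GGGCGG on either strand, where Sp-family factors can bind.
Vegfa: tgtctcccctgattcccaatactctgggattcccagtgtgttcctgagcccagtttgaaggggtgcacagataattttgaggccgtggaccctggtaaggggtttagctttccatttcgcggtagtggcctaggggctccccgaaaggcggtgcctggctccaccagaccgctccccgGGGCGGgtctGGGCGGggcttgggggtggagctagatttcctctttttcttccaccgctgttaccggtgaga
Vegfb: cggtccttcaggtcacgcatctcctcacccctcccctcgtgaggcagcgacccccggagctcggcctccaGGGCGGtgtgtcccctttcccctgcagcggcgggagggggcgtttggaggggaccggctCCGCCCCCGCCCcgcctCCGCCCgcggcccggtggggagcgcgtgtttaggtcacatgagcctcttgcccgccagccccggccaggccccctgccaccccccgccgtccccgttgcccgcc
The *Vegfa* window held 2 GC boxes at a GC content of 59.2%, and the *Vegfb* window held 4 at 76.4%. A GC box was found in 32.7% of the 32851 windows of this length over all genes. The HIF core ACGTG, the motif of hypoxia-inducible factors, was not found on either strand of these windows and was found in 16.6% of all windows. Sequence farther than 250 bases upstream was not examined, so that a HIF core there would not have been seen. *Vegfa* has a second annotated start, and its window, chr17:46025164-46025413, lies within the gene and held 1 HIF core. Windows were given for 7 of the 10 genes, 10 windows in all, and the genes without one were *Pdgfb*, *Angpt1* and *Angpt2*.

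*Pdgfc*, a ligand of PDGFRA that is secreted in latent form and activated by cleavage, rose most among the 10 genes on the log2 scale. It lies on chr3:81036416-81214040 (GRCm38, plus strand). Its normalised counts were 682, 681, 1045, 729 and 867 in young and 1311, 1173, 1666, 1294 and 1472 in old replicates 1 to 5, so that the lowest old library was above the highest young one. The mean rose from 801 ± 156 to 1383 ± 191 (SD, n = 5 mice each), and the edgeR fit gave a 1.74-fold increase. The log2 fold change was 0.80 (SE 0.13, 95% interval 0.51 to 1.08, adjusted p = 0.00235) and lay between 0.72 and 0.91 when each library was left out. *Pdgfc* was the only one of the 10 genes with an adjusted p below 0.01.

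*Pdgfb*, the ligand of both PDGF receptors that endothelial cells use to attract mural cells, lies on chr15:79995874-80014977 (GRCm38, minus strand) and also rose. It had 567, 461, 501, 402 and 434 normalised counts in young and 689.5, 514, 627, 669 and 606 in old aortae. The old library with the lowest value, replicate 2, fell below young replicate 1, and the other 4 old libraries were above all young ones. The mean was 473 ± 64.0 in young and 621 ± 68.3 in old aortae. The edgeR fit gave a 1.32-fold increase at a log2 fold change of 0.40 (SE 0.10, 95% interval 0.18 to 0.62, adjusted p = 0.0210). This call was close to the threshold, since it was lost without young replicate 2, 4 or 5 (adjusted p = 0.0523, 0.0567 and 0.0577) and without old replicate 1 or 4 (adjusted p = 0.0527 and 0.0508).

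*Pdgfd*, the ligand of PDGFRB that is also secreted in latent form, had lower values in most old aortae but did not pass the test. Its normalised counts were 3073, 3802, 3971, 3558 and 3962 in young and 3341, 2917, 3347, 3241 and 2876 in old aortae. The young library with the lowest value, replicate 1, lay within the old range, and the other 4 young libraries were above all old ones. The log2 fold change was -0.22 (SE 0.08, 95% interval -0.38 to -0.05, unadjusted p = 0.0159, adjusted p = 0.0936), and without young replicate 1 it was -0.28 (adjusted p = 0.0141).

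*Pdgfa*, the ligand of PDGFRA, lay between 1485 and 1773 normalised counts in young and between 1625 and 1911 in old aortae. Its log2 fold change was 0.11 (SE 0.07, 95% interval -0.03 to 0.25, adjusted p = 0.292). Old replicate 1 was above all young libraries, and the other old libraries lay within the young range. Of its exonic length, 26.1% is overlapped by the antisense gene *6330403L08Rik*, and the strand setting of the counting was not given in the sources used here, so that reads of the 2 genes may not be told apart.

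For the PDGF family, the window of the gene that rose most is shown beside that of the gene with the highest level per length, which had a negative log2 fold change. They lie on chr3:81036166-81036415 (plus strand) for *Pdgfc* and on chr9:6168236-6168485 (plus strand) for *Pdgfd*, from RefSeq on GRCm38.p6. Capitals mark the CArG box, the motif of serum response factor, in *Pdgfc* and the TATA box, TATAAA, in *Pdgfd*.
Pdgfc: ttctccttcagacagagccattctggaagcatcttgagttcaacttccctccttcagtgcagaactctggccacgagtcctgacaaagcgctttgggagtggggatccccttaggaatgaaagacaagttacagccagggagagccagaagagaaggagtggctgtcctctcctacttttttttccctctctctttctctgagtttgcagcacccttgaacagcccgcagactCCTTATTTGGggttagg
Pdgfd: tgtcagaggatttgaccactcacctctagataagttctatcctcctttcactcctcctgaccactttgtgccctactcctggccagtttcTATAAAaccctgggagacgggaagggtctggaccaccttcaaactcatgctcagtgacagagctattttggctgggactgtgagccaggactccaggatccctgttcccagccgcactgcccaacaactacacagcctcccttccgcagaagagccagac
The *Pdgfc* window held 1 CArG box, which ended 7 bases before the transcript start, and no GC box at a GC content of 50.8%. A CArG box was found in 1.47% of all windows, and in 1 of the 10 windows of the growth factor genes. The *Pdgfd* window held 1 TATA box, found in 12.4% of all windows on either strand, at a GC content of 53.6%. This match lay nearer to the upstream end of the window than to the transcript start. A match of letters is a description of the sequence and was not related to binding here.

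*Angpt2*, the competing ligand of Tie2, lies on chr8:18690263-18741562 (GRCm38, minus strand) and rose in old aortae. Its normalised counts were 1930.1, 1678, 1729, 1308 and 1629 in young and 1976, 2161, 2251, 2053 and 2033 in old replicates 1 to 5, without overlap, although old replicate 1 and young replicate 1 were close. The mean was 1655 ± 225 in young and 2095 ± 110.0 in old mice (SD, n = 5 each), a 1.27-fold increase at a log2 fold change of 0.35 (SE 0.09, 95% interval 0.16 to 0.53, adjusted p = 0.0199). Without old replicate 3 the adjusted p was 0.04999, and the call held in all 10 omissions of a library.

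*Angpt1*, which encodes the activating ligand of Tie2, was the lowest of the 10 genes and the most variable. It had 134, 72.5, 114, 92.7 and 60.5 normalised counts in young and 98.9, 92.6, 91.3, 157 and 164 in old aortae. Old replicates 4 and 5 were above all other libraries, and the remaining old libraries lay within the young range. The log2 fold change of 0.36 was as large as that of *Angpt2*, but with an SE of 0.24, a 95% interval of -0.16 to 0.88 and an adjusted p of 0.375. The antisense gene *Gm17473* overlaps 14.2% of the exonic length of *Angpt1*.

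**Figure D2:**
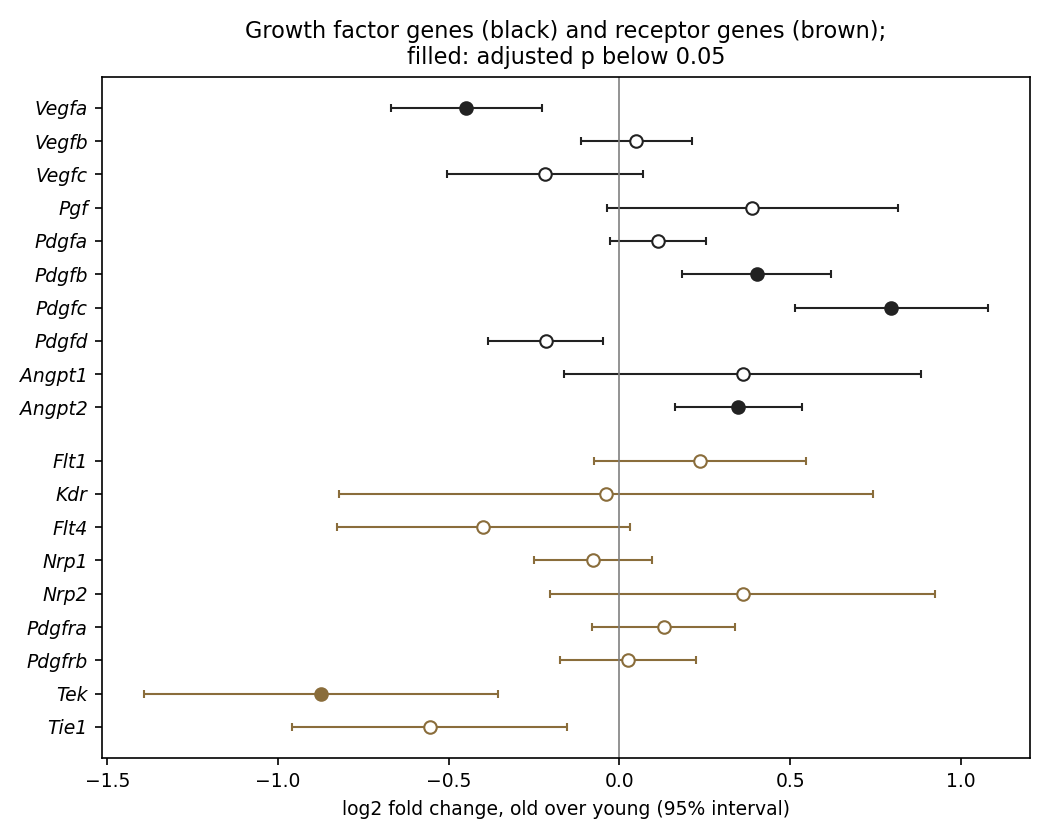
Log2 fold change, old over young, of the 10 growth factor genes (black) and the 9 receptor genes (brown), with 95% intervals derived from the edgeR F statistic. Filled points have an adjusted p below 0.05. *Pdgfc* lies farthest to the right at 0.80 and *Tek* farthest to the left at -0.87, and the intervals of *Kdr*, *Nrp2* and *Angpt1* are the widest.

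Levels of different genes were compared as normalised counts per kilobase of exonic length, averaged over the 10 libraries. *Pdgfd* had the highest level at 1081 per kb, 2.03-fold above *Pdgfa* at 533, and was higher in 10 of 10 libraries. *Pdgfa*, *Angpt2* at 508 and *Vegfb* at 480 per kb were close on average, and their order differed between the ages. *Pdgfa* was above *Angpt2* in 4 of 5 young and 1 of 5 old libraries, and *Angpt2* was above *Vegfb* in 1 of 5 young and 5 of 5 old libraries. The next step was clear, since *Vegfb* exceeded *Pdgfc* at 215 per kb in all 10 libraries. The order of *Pdgfc* and *Vegfa* also turned, since *Pdgfc* was above *Vegfa* in 1 of 5 young libraries (mean levels 157 and 222 per kb) and in 5 of 5 old libraries (272 and 162 per kb). *Vegfa* exceeded *Pdgfb* at 131 per kb in 9 of 10 libraries, *Pdgfb* exceeded *Pgf* at 104 in 9 of 10, and *Pgf* exceeded *Vegfc* at 91.0 in 2 of 5 young and 5 of 5 old libraries. *Angpt1* was last at 20.7 per kb, 4.40-fold below *Vegfc* and lower in all 10 libraries.

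The makeup of each family was described by the share of each gene in the summed level per kb of the growth factor genes described here, and these shares were not tested. The sums leave out *Vegfd*, with 1597 normalised counts in young and 1879 in old aortae, and *Angpt4*, with 627 and 671, so that they cover all PDGF genes but only 4 of the VEGF and 2 of the angiopoietin genes. *Vegfa* made up 25.1% ± 1.91 of the summed level of these 4 VEGF genes in young and 19.0% ± 1.88 in old aortae, while *Vegfb* went from 53.5% ± 2.29 to 57.3% ± 1.04. *Pgf* accounted for 10.2% ± 2.87 and 13.8% ± 2.7, and *Vegfc* for 11.2% ± 2.35 and 9.91% ± 1.64. In the PDGF family the share of *Pdgfc* was 8.05% ± 1.22 in young and 13.8% ± 1.53 in old aortae, and that of *Pdgfd* was 59.7% ± 1.90 and 50.6% ± 1.54. The shares of *Pdgfd* did not overlap, at 56.4% to 61.1% in young and 48.2% to 52.3% in old libraries. Neither did those of *Pdgfc* (6.63% to 9.96% and 12.3% to 15.6%) and *Vegfa* (22.1% to 27.3% and 16.8% to 21.8%). Shares of 1 sum depend on each other, so that a higher share of *Pdgfc* by itself lowers that of *Pdgfd*. *Pdgfb* stood at 5.89% ± 1.16 and 7.57% ± 0.54, and *Pdgfa* at 26.4% ± 2.06 and 28.1% ± 1.31. Of the summed level of *Angpt1* and *Angpt2*, *Angpt2* held 96.1% at both ages.

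**Figure D3:**
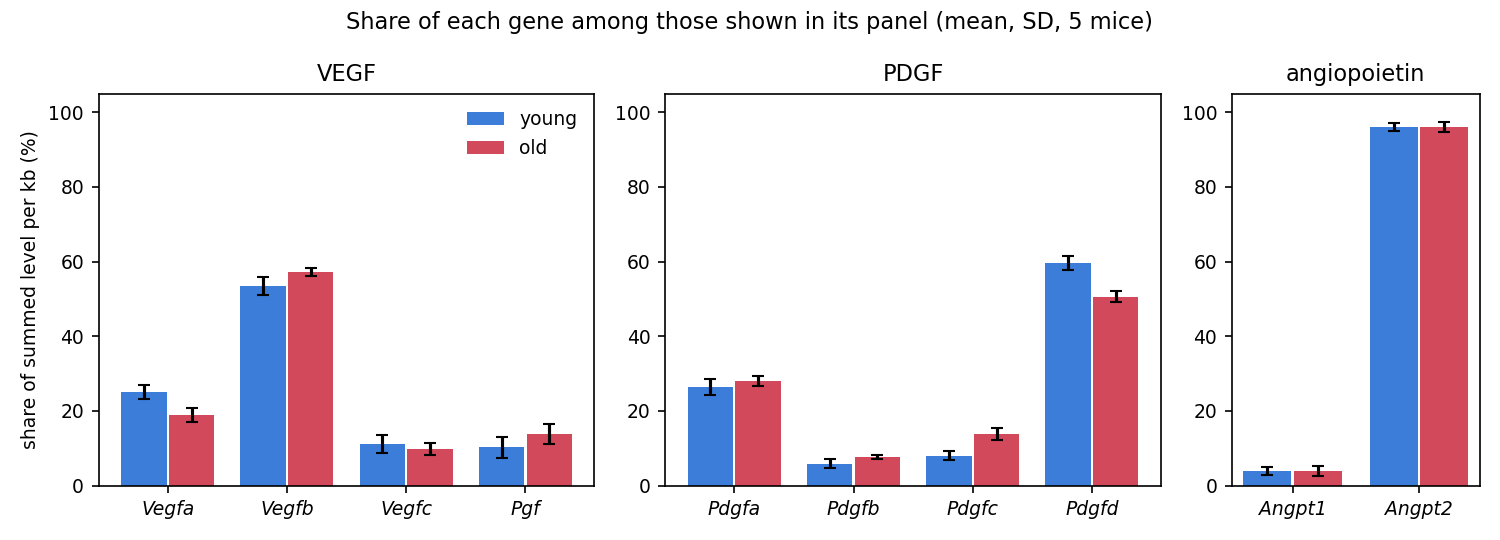
Share of each gene in the summed level per kb of the genes shown in its panel (%), as mean and SD of 5 young (blue) and 5 old (red) mice; *Vegfd* and *Angpt4* are not in the sums. In old aortae *Vegfa* takes 19.0% of the sum of the 4 VEGF genes against 25.1% in young, and *Pdgfc* takes 13.8% of the PDGF sum against 8.05%, while *Angpt2* holds 96.1% of its sum with *Angpt1* at both ages.

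Among the 9 receptor genes, *Tek*, which encodes the angiopoietin receptor Tie2, was the only one called by edgeR, against a background of 11.5% of tested genes. It had 2045, 1325, 2443, 1361 and 1571 normalised counts in young and 795, 1253, 656, 1233 and 813 in old aortae, without overlap. Its mean fell from 1749 ± 482 to 950.1 ± 274 (SD, n = 5 mice each). The edgeR fit gave a level 45.4% lower in old aortae, at a log2 fold change of -0.87 (SE 0.23, 95% interval -1.39 to -0.36, adjusted p = 0.0381). The call was lost without the low-count filter (adjusted p = 0.101), and when young replicate 1, 3 or 5 (adjusted p = 0.0656, 0.0638 and 0.0582) or old replicate 1, 3 or 5 (adjusted p = 0.0809, 0.0795 and 0.0859) was left out. The ligand gene *Angpt2* was higher and its receptor gene lower in all 5 old libraries than in any young one.

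*Tie1*, the partner receptor of Tie2, had 1777, 1406, 1950.2, 1371 and 1310.5 normalised counts in young and 906, 1484, 771, 1202 and 928 in old aortae. Old replicate 2 lay within the young range and the other old libraries lay below it. The log2 fold change was -0.56 (SE 0.18, adjusted p = 0.0769), and *Tie1* was called by DESeq2 (adjusted p = 0.0118), by limma-voom (adjusted p = 0.0398) and by edgeR without old replicate 2 (adjusted p = 0.0158).

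Both genes are expressed mainly in endothelial cells, as are the markers *Pecam1*, *Cdh5*, *Vwf*, *Emcn*, *Erg*, *Egfl7*, *Esam* and *Robo4*. Of these 8 markers, 7 had negative log2 fold changes with a median of -0.47, and none was called by edgeR. An unadjusted p below 0.05 was found for 5 of them, beside 26.7% of all tested genes. DESeq2 and limma-voom called 3 of the 8 each, beside 15.8% and 11.6% of all tested genes. Their summed level was 28317, 20616, 34510.4, 21931 and 22151 normalised counts in young and 14812, 24417, 12078, 17535 and 12807 in old aortae, with old replicate 2 alone inside the young range. None of the 8 was at 0 in any library. Their part in the lower *Tek* and *Tie1* levels was not tested, and in whole aortae fewer cells of a type and less RNA per cell cannot be told apart.

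The VEGF receptors did not pass the test. *Flt1*, encoding the receptor of VEGF-A, VEGF-B and placental growth factor, had a mean of 1138 ± 149 normalised counts in young and 1333 ± 301 in old aortae, at a log2 fold change of 0.24 (SE 0.14, adjusted p = 0.323) that was 0.08 without old replicate 2. *Kdr*, the main signalling receptor of VEGF-A, had 723, 253, 425, 261 and 243 normalised counts in young and 303, 608, 281, 329.7 and 324 in old aortae, a spread so wide that its log2 fold change of -0.04 carried a 95% interval of -0.82 to 0.74. The sign of *Kdr* turned with limma-voom, at 0.031. *Flt4*, the VEGF-C receptor, had a log2 fold change of -0.40 (adjusted p = 0.220) that was -0.21 without young replicate 1, and the co-receptors *Nrp1* and *Nrp2* had -0.08 (adjusted p = 0.583) and 0.36 (adjusted p = 0.410). High *Kdr* values were found in young replicate 1 and old replicate 2, the libraries that stood apart above.

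The PDGF receptors had narrow intervals around no change. *Pdgfrb*, the receptor gene of mural cells, had a mean of 8153 ± 1044 normalised counts in young and 8252 ± 776 in old aortae, at a log2 fold change of 0.03 (95% interval -0.17 to 0.22, adjusted p = 0.893). *Pdgfra*, the fibroblast receptor gene, went from 3539 ± 383 to 3848 ± 512, at a log2 fold change of 0.13 (95% interval -0.08 to 0.34, adjusted p = 0.437). Changes of the size seen for *Pdgfc* lie outside both intervals.

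To compare ligands with their partners within each library, 8 ratios of counts were tested with an exact two-sided permutation test over the libraries, where 5 against 5 libraries can give no p below 0.00794, and p-values were adjusted over the 8 ratios. Each ratio was formed from genes whose levels are given above, so that a shifted ratio is no separate support for a change of either gene. The ratio of *Vegfb* to *Vegfa* was 0.818, 0.732, 0.744, 0.787 and 0.930 in young and 1.09, 0.970, 1.27, 1.12 and 1.22 in old aortae, a log2 difference of 0.50 (exact p = 0.00794, adjusted p = 0.0159), higher in 5 of 5 old libraries. As single genes, *Vegfb* had a log2 fold change of 0.05 and *Vegfa* of -0.45. All young aortae had fewer counts on *Vegfb* than on *Vegfa*, and 4 of 5 old aortae had more. These counts are not corrected for exonic length, which is 1.605 kb for *Vegfb* and 4.285 kb for *Vegfa*. Per kb, the mean level of *Vegfb* was above that of *Vegfa* at both ages (473 and 222 in young, 487 and 162 in old aortae). The ratio of *Vegfa* to its receptor gene *Flt1* was 0.733 to 0.885 in young and 0.426 to 0.621 in old aortae, with a log2 difference of -0.67 (exact p = 0.00794, adjusted p = 0.0159) and no overlap. *Flt1* alone had a log2 fold change of 0.24. For *Vegfa* against *Kdr* the log2 difference was -0.49 and did not pass the exact test (adjusted p = 0.233), with overlapping ranges of 1.48 to 4.19 in young and 1.31 to 2.41 in old aortae.

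The count of *Pdgfb* per count of its receptor gene *Pdgfrb* was 0.0504 to 0.0688 in young and 0.0710 to 0.0782 in old aortae, a log2 difference of 0.37 (exact permutation test, adjusted p = 0.0159). As single genes, *Pdgfb* had a log2 fold change of 0.40 and *Pdgfrb* of 0.03, so that this ratio mainly restates the rise of *Pdgfb*. Relative to the summed counts of the 8 endothelial markers, *Pdgfb* was 2.08-fold higher in old aortae (log2 difference 1.06, exact p = 0.0159, adjusted p = 0.0254), with 4 of 5 old libraries above all young ones. *Angpt2* per endothelial marker count was 2.02-fold higher (log2 difference 1.01, exact p = 0.00794, adjusted p = 0.0159), at 0.0501 to 0.0814 in young and 0.0885 to 0.186 in old aortae. For *Pdgfb* and *Angpt2* the fold relative to the endothelial markers was larger than the fold in normalised counts. This follows from the lower marker sum in old aortae (mean 25505 in young and 16330 in old), so that these 2 ratios are no separate support for the rise. *Pecam1* and *Vwf*, with mean levels of 10988 and 7701 in young aortae, weighed most in the sum. The ratio of *Angpt2* to *Angpt1* had a log2 difference of -0.01 (exact permutation test, adjusted p = 0.992) and that of *Pdgfa* to *Pdgfra* had -0.01 (exact permutation test, adjusted p = 0.992), and the *Angpt2* to *Angpt1* ratio ranged from 14.0 to 26.7 in young and from 12.3 to 24.5 in old aortae.

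**Figure D4:**
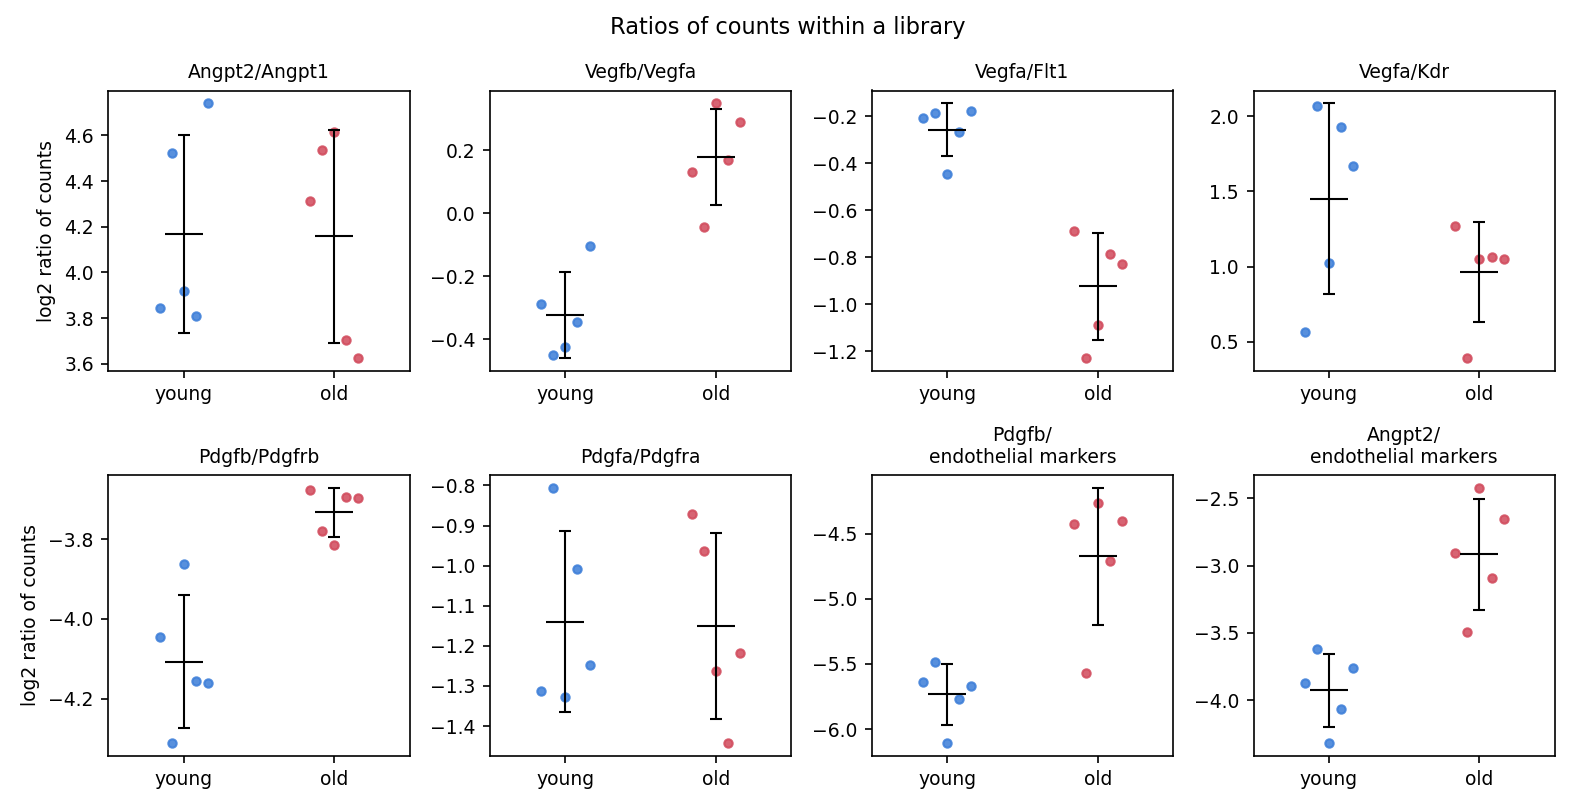
Log2 ratio of counts within each library for 8 pairs, with young aortae in blue, old aortae in red, and mean and SD of 5 mice in black; the vertical axes differ between panels and do not start at 0. Old and young libraries do not overlap for *Vegfb*/*Vegfa*, *Vegfa*/*Flt1*, *Pdgfb*/*Pdgfrb* and *Angpt2*/endothelial markers, and overlap for the others.

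Proteins that activate the ligands, with the remaining ligands of the families, formed a list of 9 genes, of which 8 were tested, 2 rose and none fell, beside 6.48% of all tested genes called higher and 4.99% called lower. *Ccbe1*, whose product promotes the cleavage that activates VEGF-C, rose from 338 ± 13.2 to 570.2 ± 90.7 normalised counts at a log2 fold change of 0.76 (SE 0.10, adjusted p = 0.000375). *Plat*, encoding the tissue plasminogen activator that can cleave PDGF-C, rose from 2395 ± 118 to 3184 ± 359, at a log2 fold change of 0.42 (SE 0.08, adjusted p = 0.00350). For both genes, all old libraries were above all young ones, as for *Pdgfc*, and 9.92% of all tested genes had groups that did not overlap. *Vegfd*, the other lymphatic VEGF, had a log2 fold change of 0.24 (adjusted p = 0.214), *Angpt4* 0.11 (adjusted p = 0.799), and the convertase gene *Furin* -0.12 (adjusted p = 0.194). The median log2 fold change of the list was 0.17, and *Plg* was not tested.

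Proteins outside the cell or in its membrane that bind or oppose these ligands or their receptors formed a list of 12 genes. Of these, 3 fell and none rose, where 4.99% of all tested genes were called lower and 6.48% higher. *Sparc*, a matrix protein that binds PDGF and VEGF, fell from 104513 ± 6325 to 53278 ± 9220.3 normalised counts, at a log2 fold change of -0.96 (SE 0.11, adjusted p = 0.00018). *Sema3c*, a semaphorin that signals through neuropilins, fell from 5578 ± 505 to 4107 ± 419, at a log2 fold change of -0.43 (SE 0.08, adjusted p = 0.00499). *Ptprb*, the endothelial phosphatase that acts on Tie2, had a log2 fold change of -0.75 (SE 0.20, adjusted p = 0.0396), and lost its call without young replicate 1, 3, 4 or 5 or old replicate 1, 3 or 5 (adjusted p = 0.0580 to 0.0902 in these 7 fits) and without the low-count filter (adjusted p = 0.116). Scaling by library size alone also lost it (adjusted p = 0.0510). In all, 11 of the 12 log2 fold changes were negative and the median was -0.19. *Ptprb* is an endothelial gene like *Tek*, and the endothelial marker levels given above apply to it in the same way.

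Of 28 tested genes that carry the signal inside the cell, 3 rose and 2 fell, a share of 5 in 28 beside the 11.5% of all tested genes. *Foxo1*, the transcription factor that AKT holds out of the nucleus, fell from 1846 ± 123 to 1390.1 ± 75.0 normalised counts at a log2 fold change of -0.40 (SE 0.06, adjusted p = 0.00109). *Pik3cb*, a catalytic subunit of PI3-kinase, fell from 702 ± 119 to 483 ± 55.2 at a log2 fold change of -0.53 (SE 0.11, adjusted p = 0.0104). *Prkcb*, a protein kinase C gene that leukocytes also express, rose from 56.6 ± 12.05 to 117 ± 22.7 at a log2 fold change of 1.05 (SE 0.18, adjusted p = 0.00267). Beside it, 3 of the 6 macrophage markers rose and none fell, with a median log2 fold change of 0.60, a summed level of 4369 to 5573 in young and 5528 to 10477 normalised counts in old aortae and no marker at 0, and their part in the *Prkcb* level was not tested. The median of the list was -0.02, and the endothelial nitric oxide synthase gene *Nos3* had -0.60 (adjusted p = 0.110).

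*Vegfa* is a classical target of the hypoxia-inducible factors, so the oxygen-sensing genes and other targets of these factors were examined as lists. None of the 8 oxygen-sensing genes was called by edgeR, 1 had an unadjusted p below 0.05, and DESeq2 called 1 and limma-voom 0. The gene at an unadjusted p below 0.05 was *Hif1a*, which went from 3083 to 2598 normalised counts (log2 fold change -0.24, adjusted p = 0.0687), while *Epas1*, encoding the endothelial HIF subunit, had 0.12 (adjusted p = 0.428). Of 18 tested hypoxia-inducible targets, 1 rose and none fell, near the 6.48% of all tested genes called higher. An unadjusted p below 0.05 was found for 8 of the 18, beside 26.7% of all tested genes, and DESeq2 called 4 and limma-voom 1. That gene was *Ndrg1*, which went from 4007 ± 533 to 5618 ± 822 normalised counts (log2 fold change 0.50, SE 0.11, adjusted p = 0.0114). The median log2 fold change of the targets was 0.09, and the glucose transporter gene *Slc2a1* had -0.17 (adjusted p = 0.163). Of these targets, 11 had positive and 7 negative log2 fold changes, and the part of hypoxia-inducible factors in the lower *Vegfa* level was not tested.

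Genes that VEGF induces in endothelial cells formed a list of 11, of which 2 fell and none rose, beside 4.99% of all tested genes called lower. These were *Rcan1*, a calcineurin regulator, at a log2 fold change of -0.79 (SE 0.22, adjusted p = 0.0431), and *Nid2*, a basement membrane gene, at -0.40 (SE 0.12, adjusted p = 0.04995). Both calls were lost in 9 of 10 omissions of a library, *Rcan1* in all but that of young replicate 1 (adjusted p = 0.0570 to 0.0938) and *Nid2* in all but that of old replicate 3 (adjusted p = 0.0531 to 0.0930). *Rcan1* was also lost without the low-count filter (adjusted p = 0.121). *Nid2* was also lost with upper-quartile scaling (adjusted p = 0.0720), library size alone (0.0819) and a filter on a mean count of at least 10 (0.05005). *Dll4* and *Esm1*, tip cell genes that respond to VEGF, had log2 fold changes of 0.09 (adjusted p = 0.917) and 1.14 (SE 0.59, adjusted p = 0.259). *Esm1* had 145 ± 43.9 normalised counts in young and 316 ± 336 in old aortae, where the SD exceeded the mean. The median of the list was -0.05.

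Immediate early genes, which growth factors and many other stimuli induce, moved in both directions, with 1 of 13 higher and 2 lower, where 6.48% of all tested genes were called higher and 4.99% lower. *Junb* rose from 1181 ± 260.3 to 2009 ± 369.8 normalised counts (log2 fold change 0.77, SE 0.16, adjusted p = 0.00957). *Atf3*, a stress-responsive transcription factor, fell from 2725 ± 1246 to 557 ± 194 (log2 fold change -2.28, SE 0.39, adjusted p = 0.00596). *Fosb* had a log2 fold change of -1.16 (SE 0.30, adjusted p = 0.0337) and lost its call without young replicate 3 or 4 or old replicate 1, 3 or 5 (adjusted p = 0.0607 to 0.0776) and without the low-count filter (adjusted p = 0.0862). The median of the list was -0.25.

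**Figure D5:**
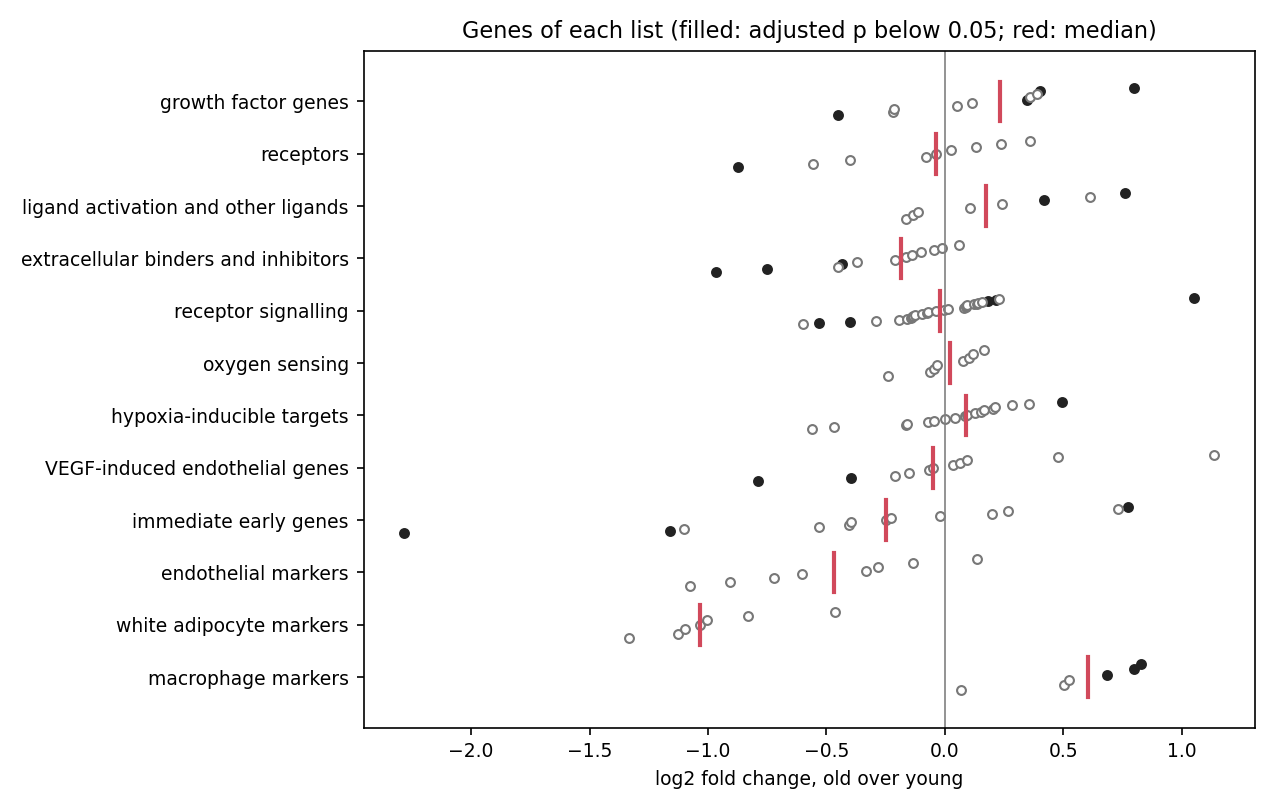
Log2 fold change, old over young, of each tested gene in the growth factor, receptor, pathway and marker lists; filled points have an adjusted p below 0.05 and red bars mark the median of a list. The growth factor median lies at 0.23, the endothelial median at -0.47, the white adipocyte median at -1.04 and the macrophage median at 0.60.

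Markers of the other cell types that an aorta sample could hold gave the setting of these values. Of all tested genes, 6.48% were called higher and 4.99% lower by edgeR, and 26.7% had an unadjusted p below 0.05. DESeq2 called 15.8% and limma-voom 11.6% of them. Smooth muscle markers had 1 of 7 higher and none lower with a median log2 fold change of -0.07, and 1 at an unadjusted p below 0.05. Fibroblast markers had 1 of 7 higher, *Lum* (log2 fold change 0.58), and 2 lower, *Mfap5* (-1.03) and *Pi16* (-0.58), with a median of -0.23. Of the 7 fibroblast markers, 5 had an unadjusted p below 0.05, and DESeq2 called 4 and limma-voom 3. The summed level of neither list separated the ages. None of the 4 pericyte, 4 lymphatic endothelial and 4 Schwann cell markers was called by edgeR, DESeq2 or limma-voom, with 1, 2 and 1 of them at an unadjusted p below 0.05. The summed lymphatic markers lay at 831 to 1918 normalised counts in young and 814 to 1020 in old aortae. Of the 3 tested markers of platelets, which store PDGF, 1 was called higher in old aortae by edgeR, *Itga2b*, with 41.8 ± 10.51 normalised counts in young and 67.5 ± 12.5 in old aortae (adjusted p = 0.0385). All 3 had positive log2 fold changes with a median of 0.70, 2 had an unadjusted p below 0.05, and DESeq2 called 2 and limma-voom 1. The summed level of the platelet list was 268 to 425 in young and 402 to 684 in old aortae. The part of platelets in the *Pdgfb* level was not tested. Of the 4 tested brown adipocyte and 2 tested lymphocyte markers, none was called by edgeR, with 0 and 1 at an unadjusted p below 0.05, and DESeq2 called 0 and 1 and limma-voom 0 and 0. Of the 4 tested striated muscle markers, 1 was lower. Among the markers of all lists, *Myh4* and *Cd3e* were at 0, in 4 and 2 libraries, and neither passed the filter.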

How the data were processed

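RNA-seq of 10 mouse aortae, 5 young and 5 old, was deposited as 1 table of raw counts per gene symbol. Per the paper's methods and the submitters' processing notes, the authors trimmed reads with fastp 0.20.0, aligned them to GRCm38 with GENCODE M22 genes with STAR 2.7.0f and counted them per gene with featureCounts of Subread 1.6.4, so that the deposited values are whole-number counts without normalization. Libraries were stranded, but the strand setting of the counting is not given in the sources used here.

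Groups and replicate numbers were taken from the sample titles. Genes were filtered with filterByExpr, and old was compared with young by the quasi-likelihood test of edgeR 4.0.16 (TMM scaling, robust fit, R 4.3.3) with Benjamini-Hochberg adjustment over all tested genes and a call at 0.05. Normalised counts are counts divided by DESeq2 1.42.0 size factors. The edgeR test gives no SE, so each SE was derived as the absolute log2 fold change divided by the square root of the quasi-likelihood F statistic. The 95% intervals use this SE and the total degrees of freedom of the fit, prior included. Ratios were formed from counts plus 0.5 and compared with exact permutation tests. The authors had normalized and tested with DESeq2. Within a group, counts of 2 libraries differed 8.61 to 64.1 times more than counting error (chi-square over degrees of freedom, 20 pairs), so that no 2 libraries were the same within sampling noise, and the precision was set mainly by the spread between mice.

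The genes named are the 10 growth factor genes, the 9 receptor genes and, of every other pathway list, up to 3 called genes of smallest p, and further list members were named after their values were seen. The members, lists, ratios and tests were chosen with earlier results of these data known. Positions and exonic lengths are from GENCODE M21, and upstream windows from RefSeq, both on GRCm38. Alternatives were DESeq2, limma-voom (limma 3.58.1), other scalings, other filters, a threshold of 0.01, the replicate number as a block and the omission of each library. The fits were tested on simulated counts.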

Additional observations from a re-analysis of the deposited data

Results flagged for a closer look

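In groups of 5 libraries, a highest or lowest library was marked when its gap to the nearest other library, divided by the range of the group, exceeded 0.71. Chance marks about 1 in 20 groups, and 6 of 82 groups were marked. *Vegfc* was lowest in old replicate 1, at 152 normalised counts against 214 to 223 in the other old libraries. *Flt1* was lowest among young libraries in replicate 5, at 873 normalised counts with the nearest at 1180.5, and highest among old libraries in replicate 2, at 1869 with the nearest at 1239. *Kdr* was highest among old libraries in the same replicate 2, at 608 normalised counts with the nearest at 329.7. The highest young library for *Ccbe1* had 361 normalised counts with the nearest at 336, and all old libraries were above it. *Junb* reached 2668 normalised counts in 1 old library, with the nearest at 1876.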

How the results depend on the processing

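*Vegfa*, *Pdgfb*, *Pdgfc* and *Angpt2* were the called growth factor genes under DESeq2, limma-voom, each scaling, each low-count filter and the replicate block. At a threshold of 0.01, 658 genes and 1 growth factor gene (*Pdgfc*) were called. Leaving out each library gave 1132 (without young replicate 4) to 2367 (without young replicate 1) called genes, against 1676 with all libraries, and 3 to 5 growth factor genes, where *Pdgfb* was lost or *Pdgfd* gained. DESeq2 called 2304 genes, and its calls were 2 in the receptor list (limma-voom also 2), 1 in oxygen sensing, 4 in hypoxia-inducible targets and 5 in immediate early genes. The sign of *Kdr* turned with limma-voom (0.031), with the replicate block (0.033) and in the leave-one-out range of -0.30 to 0.32. Leave-one-out ranges that included both signs were -0.0035 to 0.10 for *Vegfb*, -0.018 to 0.079 for *Pdgfrb*, -0.12 to 0.13 for *Angpt2*/*Angpt1* and -0.081 to 0.072 for *Pdgfa*/*Pdgfra*, none of them called. For these results and those above the cause was not tested. The sample titles give replicate numbers but name no pairing of young with old libraries. The deviations of same-numbered libraries correlated at -0.294 to 0.129, and 2 of 5 young and 2 of 5 old libraries correlated best with their own number. With 5 pairs, these correlations cannot decide whether the numbers pair the libraries. With the replicate block, 1261 genes were called, and calls were lost for *Tek* (adjusted p = 0.178), *Ptprb* (0.150), *Rcan1* (0.157), *Nid2* (0.0753), *Atf3* (0.0703) and *Fosb* (0.0874). Paired by number, an exact sign-flip test over 5 pairs cannot go below 0.0625, and the log2 differences 0.50 (*Vegfb*/*Vegfa*), -0.67 (*Vegfa*/*Flt1*), 0.37 (*Pdgfb*/*Pdgfrb*), 1.06 (*Pdgfb*/endothelial markers) and 1.01 (*Angpt2*/endothelial markers) had adjusted exact p-values of 0.125, except 0.2 for *Pdgfb*/endothelial markers. Of 180 values of the 10 genes under an alternative, 173 kept their direction and side of the threshold, 5 lost the call, 1 gained it and 1 turned sign. *Angpt1*, at 60.5 to 164 normalised counts, had the widest 95% interval of the 10 genes.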
